A study of Mus musculus with 2 samples.

Results

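Accessible chromatin was examined at 8 genes of fibroblast growth factor (FGF) signalling in mouse urinary bladder: the receptors Fgfr1, Fgfr2, Fgfr3 and Fgfr4 and the ligands Fgf1, Fgf2, Fgf7 and Fgf10. They are 8 of 21938 protein-coding genes annotated on mm10, and each was taken by name. A locus is the annotated gene with 10 kb on either side, and for Fgfr2 the span of its protein-coding transcripts shorter than 200 kb. The study holds 2 DNase-seq libraries of 1 group, biological replicates 1 and 2, from whole bladder tissue of adult female B6CASTF1/J mice, offspring of a C57BL/6J by CAST/EiJ cross, aged 18 to 20 months. No second group exists, so the measurements describe 1 condition and carry no p-values. The labels give the libraries separate tissue records but the same donor record, and do not say whether that record is 1 animal or a strain. Each SD over n = 2 may therefore hold technical spread only.

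FGF ligands bind receptor tyrosine kinases at the cell surface together with heparan sulphate chains. The receptor then phosphorylates the adaptor Frs2, which recruits Grb2 and Sos and starts the MAP kinase cascade. Fgf7 and Fgf10 are made by stromal cells and act on an epithelial splice form of Fgfr2, a textbook case of signalling from connective tissue to epithelium. Fgfr3 is best known in bladder because its human counterpart is often mutated in tumours of the urothelium, the epithelium that lines the organ.

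DNase I cuts DNA that is not covered by nucleosomes, and a peak is a region dense in cuts. Replicate 1 had 84591 deposited peaks and replicate 2 had 112174, with a median signal of 0.819 in replicate 1 and 0.760 in replicate 2. Peak signal is a value the authors scaled per library, a whole multiple of 1 step per library, and the median peak held 96 steps in replicate 1 and 86 in replicate 2. Total read depth is unknown. Peaks up to 1 kb away from a transcription start site (TSS) of a gene count as its promoter peaks, and footprints are short protected stretches inside accessible DNA. Markers of the organ's own layers had promoter peaks in both libraries for 6 of 6 genes of urothelium (highest Upk2), 6 of 6 of smooth muscle (Synm) and 6 of 6 of fibroblasts (Col1a1). The corresponding counts were 3 of 5 for endothelium (Vwf), 1 of 5 for leukocytes (Cd68), 1 of 5 for hepatocytes (Ttr) and 2 of 5 for skeletal muscle (Ckm). Over all protein-coding genes the share was 64.2%. In bulk tissue, fewer open cells and less accessibility per cell cannot be told apart.

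The 8 genes differed in how open they were. Of the 8 genes, 6 had a promoter peak in both libraries, beside 64.2% of all protein-coding genes. Fgfr1, Fgfr2, Fgfr3, Fgf1, Fgf2 and Fgf10 were open in both, while Fgfr4 and Fgf7 had a promoter peak in replicate 2 only. The median promoter signal of the 6 was 2.05, against 3.49 over all genes open in both libraries. Peak density over the 8 loci had a median of 1.16 per 10 kb, against 0.675 over all genes.

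The sequences below are the sites that the results return to: the strongest site away from a start in Fgfr1, the Fgfr2 promoter, 3 sites beyond gene ends that were stronger in replicate 2, and the Fgf7 promoter. Each is the mm10 reference sequence of the replicate 1 peak (for Fgf7, the replicate 2 peak), without exons of protein-coding transcripts, written 5′ to 3′. Capitals mark bases inside a deposited footprint of at least 1 library. The positions are chr8:25537281-25537500 for Fgfr1 (plus strand), chr7:130265141-130265260 for Fgfr2 (minus strand, in the direction of the gene), and chr5:33738021-33738200 for Fgfr3. The others are chr13:55178688-55178860 for Fgfr4, chr3:37414537-37414720 for Fgf2 and chr2:126034501-126034620 for Fgf7, all plus strand.
Fgfr1 intronic site: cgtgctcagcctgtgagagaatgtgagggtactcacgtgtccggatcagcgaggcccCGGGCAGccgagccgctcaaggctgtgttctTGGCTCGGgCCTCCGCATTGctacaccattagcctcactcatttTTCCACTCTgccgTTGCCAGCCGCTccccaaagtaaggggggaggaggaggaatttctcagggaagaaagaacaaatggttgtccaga
Fgfr2 promoter: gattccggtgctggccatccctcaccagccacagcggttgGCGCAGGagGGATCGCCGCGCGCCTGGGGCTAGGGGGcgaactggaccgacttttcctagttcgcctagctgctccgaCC
Fgfr3 downstream site: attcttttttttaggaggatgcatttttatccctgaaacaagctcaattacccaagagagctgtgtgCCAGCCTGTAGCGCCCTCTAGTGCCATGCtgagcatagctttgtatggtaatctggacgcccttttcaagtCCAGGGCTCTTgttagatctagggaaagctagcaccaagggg
Fgfr4 downstream site: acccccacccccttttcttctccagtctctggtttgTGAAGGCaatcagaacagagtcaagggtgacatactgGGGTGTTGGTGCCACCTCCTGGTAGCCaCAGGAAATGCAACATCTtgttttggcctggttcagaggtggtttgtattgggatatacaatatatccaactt
Fgf2 downstream site: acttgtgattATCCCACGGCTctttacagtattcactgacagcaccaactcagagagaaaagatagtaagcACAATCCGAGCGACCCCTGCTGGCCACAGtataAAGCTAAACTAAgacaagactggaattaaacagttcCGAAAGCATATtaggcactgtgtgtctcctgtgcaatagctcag
Fgf7 promoter: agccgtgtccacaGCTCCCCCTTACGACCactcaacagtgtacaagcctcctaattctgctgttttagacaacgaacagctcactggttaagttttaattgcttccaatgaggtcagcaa

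Fgfr1, a receptor used widely in mesenchymal cells, had the highest promoter signal of the 8 genes. Its strongest promoter peak, chr8:25518621-25518840, covers a TSS at 25518759 and had a signal of 3.71 in replicate 1 and 3.81 in replicate 2 (mean 3.76 ± 0.0703, SD, n = 2). That places Fgfr1 above 53.6% of the genes open in both libraries, so it sits near their middle. A second peak over a TSS, chr8:25519299-25519540, was weaker, at 0.998 in replicate 1 and 0.822 in replicate 2. In an intron 23.7 kb into the gene lay a site of nearly promoter strength, chr8:25537281-25537500, with 3.67 in replicate 1 and 2.84 in replicate 2. Its printed sequence holds the letters CACGTG outside any footprint, and 47 of its 220 bases lie in a footprint of at least 1 library. The other leading Fgfr1 site, chr8:25575201-25575360, overlaps a noncoding exon near the 3′ end and had 0.810 in replicate 1 and 2.02 in replicate 2. The locus, which also contains part of Letm2, held 10 peaks in replicate 1 and 12 in replicate 2.

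Fgfr2 encodes the receptor that Fgf7 and Fgf10 act through in epithelia. Its promoter was open at a pair of neighbouring peaks. The stronger, chr7:130265041-130265280, is 911 bp inside the gene from the nearest TSS and had 3.13 in replicate 1 and 2.83 in replicate 2 (mean 2.98 ± 0.213, SD, n = 2). The peak over the TSS itself, chr7:130266201-130266460, had 2.58 in replicate 1 and 2.72 in replicate 2, and 79.6% of its bases are G or C. Both libraries were alike here, within the SD of 0.496 that log2 ratios of all 70427 paired peaks show (1.41-fold). All 10 Fgfr2 peaks of replicate 1 were found again in replicate 2, which listed 14.

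Fgfr3 was open at its start and over the short stretch downstream of it. The peak over the annotated 5′ end, chr5:33721581-33721860, had 2.03 in replicate 1 and 2.42 in replicate 2 (mean 2.23 ± 0.277, SD, n = 2). Behind it lies a peak over another TSS, chr5:33721961-33722340, with 1.02 in replicate 1 and 0.769 in replicate 2. A peak at chr5:33722630-33722826 was listed in replicate 1 only, at 0.648, and another at chr5:33723709-33723820 in replicate 2 only, at 0.424. Both also cover a TSS, so these weak peaks of the start region were listed at different TSSs in the libraries. In the upstream flank, chr5:33712641-33712880 had 1.91 in replicate 1 and 1.502 in replicate 2, and just past the gene's end chr5:33738001-33738200 had 1.48 in replicate 1 and 2.27 in replicate 2. The Fgfr3 locus was the densest of the 8, with 1.98 peaks per 10 kb in replicate 1 and 2.26 in replicate 2, above 92.7% of all genes. It is also the shortest window, at 35.4 kb, and includes part of Letm1.

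Fgfr4, known from liver and muscle, was nearly closed. Replicate 1 listed no base within 1 kb of its TSSs with a cut-rate false discovery rate under 0.05, and the only promoter peak was chr13:55152761-55152820 in replicate 2, with a signal of 0.380. That peak exceeds only 13.2% of the peaks of its library. The sole shared site, chr13:55178681-55178860, crosses the far edge of the downstream flank and had 1.13 in replicate 1 and 2.20 in replicate 2.

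**Figure D1:**
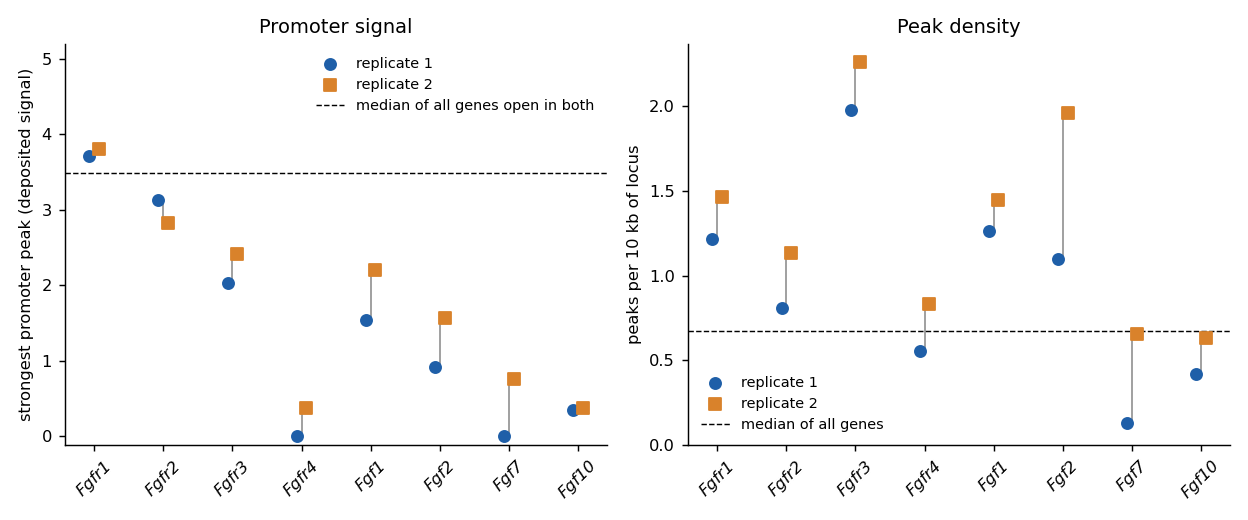
Signal of the strongest promoter peak (left, deposited units, 0 where no peak was listed) and peaks per 10 kb of locus (right) for each gene, with circles for replicate 1, squares for replicate 2 and a line joining them. The dashed line is the median of all genes open in both libraries (3.49) on the left and of all genes (0.675) on the right, and Fgfr1 alone has a promoter signal above it in both libraries.

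Fgf1, an acidic FGF that binds all the FGF receptors, had the most accessible sites that returned in both libraries. Of its 16 sites, 14 were shared. Its leading sites were away from the starts: chr18:38845681-38845880 in an intron had 2.65 in replicate 1 and 4.53 in replicate 2, and chr18:38890321-38890520 in another intron had 2.55 in replicate 1 and 3.89 in replicate 2. The upstream site chr18:38930501-38930700, which lies just beyond 1 kb from the nearest TSS, had 2.27 in replicate 1 and 3.61 in replicate 2. All 3 were higher in replicate 2. Among the alternative starts, the strongest promoter peak, chr18:38918641-38918840, had 1.54 in replicate 1 and 2.20 in replicate 2 (mean 1.87 ± 0.465, SD, n = 2), and chr18:38867001-38867220 had 1.501 in replicate 1 and 1.95 in replicate 2. The start farthest upstream, under chr18:38929441-38929700, was the weakest of these, with 0.674 in replicate 1 and 0.928 in replicate 2. The window also overlaps Arhgap26.

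Fgf2, the basic FGF stored on heparan sulphate in the matrix, had a modest promoter. The peak over its 5′ end, chr3:37348221-37348640, had 0.921 in replicate 1 and 1.05 in replicate 2. An internal TSS carries a peak, chr3:37380581-37380820, with 0.802 in replicate 1 and 1.56 in replicate 2, so the strongest promoter peak is not the same site in the libraries. The highest value in the Fgf2 locus, and in all 8 loci, lies beside a neighbouring gene. The site chr3:37419561-37419960 is within 1 kb of a TSS of Nudt6, the antisense partner of Fgf2. Its signal was 5.90 in replicate 1 and 6.57 in replicate 2. The window also overlaps Spata5, and only the Nudt6 start was named for this site, so its signal cannot be given to Nudt6 alone. Between the end of Fgf2 and that site, chr3:37414521-37414720 had 0.964 in replicate 1 and 2.49 in replicate 2. In an intron, chr3:37399101-37399320 had 1.39 in replicate 1 and 1.12 in replicate 2. Replicate 1 listed 9 peaks in the locus and replicate 2 listed 16, and every replicate 1 peak was found again. Footprints were more numerous here than in any other of the loci, 32 in replicate 1 and 44 in replicate 2. Many lie in the merged 400 bp of the site beside Nudt6, 9 in replicate 1 and 11 in replicate 2. The replicate 1 peak there covers only chr3:37419561-37419740. Of the footprints in the locus, 20 in replicate 1 and 41 in replicate 2 lay in a listed peak.

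Fgf7, the keratinocyte growth factor, was listed almost only in replicate 2. Replicate 1 had 1 peak in the whole locus, in the upstream flank with a signal of 0.657, and replicate 2 had 5, with signals between 0.513 and 0.813. None of the sites overlapped between the libraries. The peak nearest the start, chr2:126034501-126034620, lies 38 bp before the TSS at 126034658 and had 0.760 in replicate 2. Within 1 kb of the Fgf7 TSSs no stretch of replicate 1 was listed under a false discovery rate of 0.05, whereas the lowest value in replicate 2 was 0.00104.

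Fgf10, which drives epithelial branching in development, was weakly accessible around its coding start. The gene's annotated 5′ end lies 44.9 kb upstream of the start of its protein-coding transcript, and 7 of the 13 sites were within 1 kb of a TSS, gathered around 118714699 on chromosome 13. In each library 3 peaks overlapped a peak of the other, but only 2 sites were shared, each peak being the other's largest overlap. The first, chr13:118714292-118714438, had 0.264 in replicate 1 and 0.380 in replicate 2, and the other, chr13:118714944-118715300, had 0.341 in replicate 1 and 0.265 in replicate 2. The promoter signal of Fgf10 was above that of only 0.753% of the genes open in both libraries, and no Fgf10 peak entered the shorter, stricter lists of either library.

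By mean promoter signal the order was Fgfr1, Fgfr2, Fgfr3, Fgf1, Fgf2, Fgf7, Fgf10 and Fgfr4. The place of Fgf1 depends on the 1 kb limit. Its upstream site chr18:38930501-38930700, at -1.029 kb from the nearest TSS, is not counted as a promoter peak. The mean signal of that site was 2.94, above the Fgfr3 promoter mean (2.23) and near that of Fgfr2 (2.98). Fgfr1 and Fgfr2 did not overlap, since the lower Fgfr1 value (3.71) exceeds the higher Fgfr2 value (3.13), and Fgfr2 stayed above Fgfr3, whose higher value was 2.42. Fgfr3 and Fgf1 overlapped, as did Fgf1 and Fgf2 at their nearest values, 1.54 and 1.56. Fgf7, Fgf10 and Fgfr4 cannot be ordered, with Fgf7 and Fgfr4 unlisted in replicate 1.

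**Figure D2:**
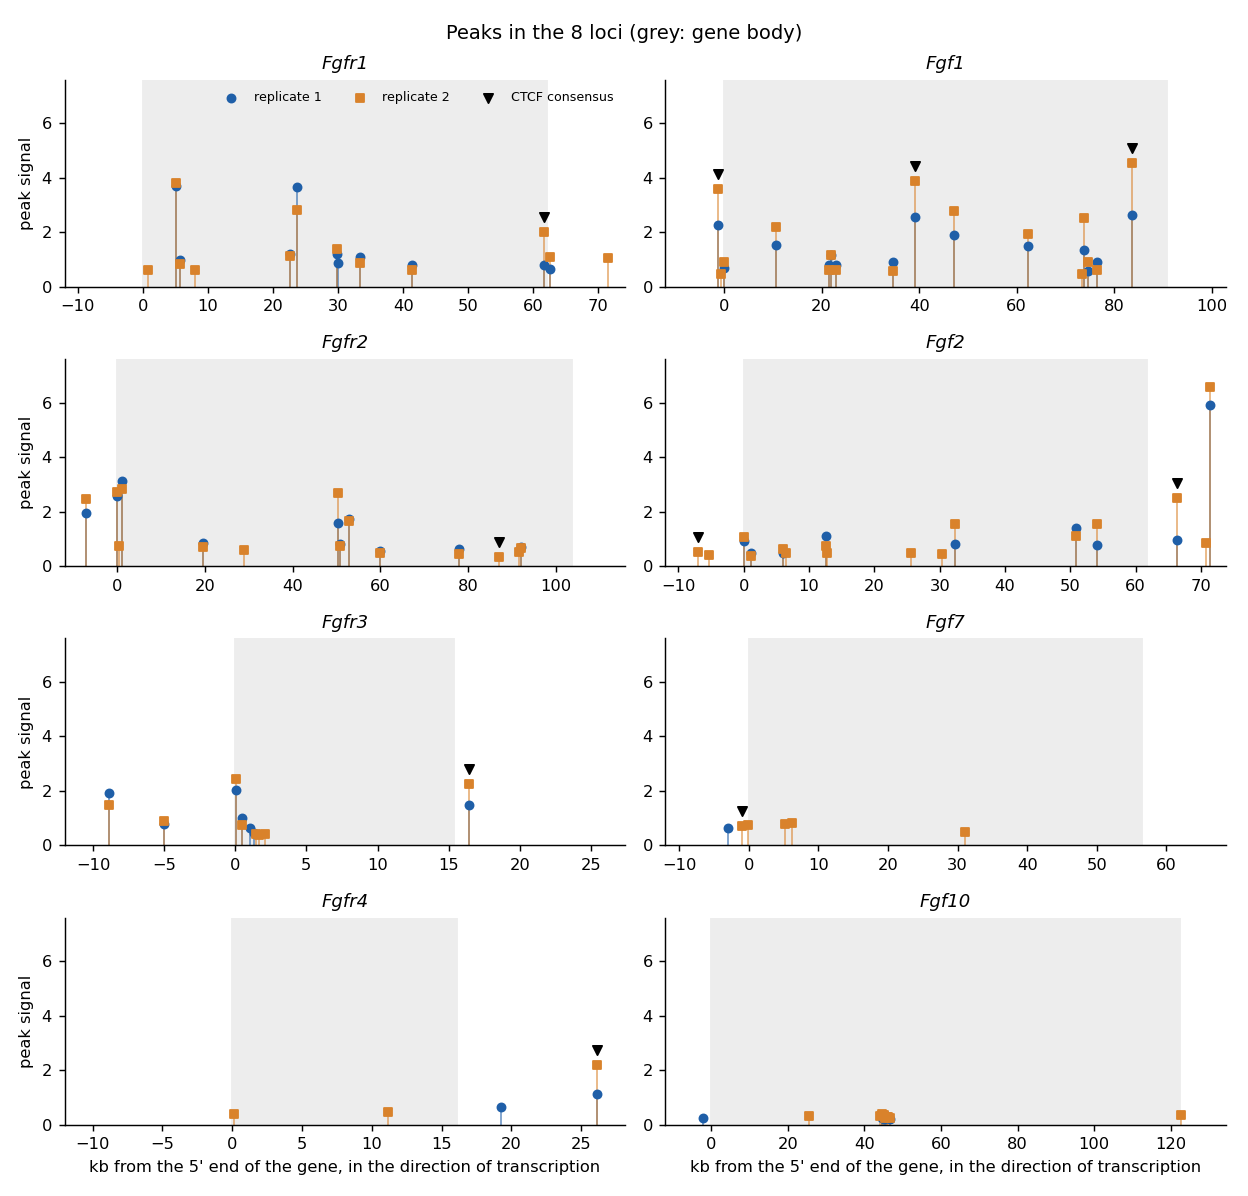
Signal of every peak in the 8 loci against distance from the gene's 5′ end in kb, in the direction of transcription, with circles for replicate 1, squares for replicate 2, the gene body in grey and a triangle over each site that holds a CTCF consensus. The tall site at the right of the Fgf2 panel, at 5.90 in replicate 1 and 6.57 in replicate 2, lies beside a Nudt6 TSS. The Fgf2 window also overlaps Spata5, and no Fgf10 site exceeds 0.380.

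Replicate 1 had 59 peaks in the 8 loci and replicate 2 had 83. Peaks that were each other's largest overlap were paired as 1 site, which gave 92 sites. Of these, 50 were pairs, called shared, 9 were unpaired peaks of replicate 1 and 33 were unpaired peaks of replicate 2. Some unpaired peaks also overlap a peak of the other library, since 51 replicate 1 peaks and 52 replicate 2 peaks met one. Overlap was close to that elsewhere: 86.4% of the replicate 1 peaks met a replicate 2 peak, against 84.7% of all replicate 1 peaks, and 62.7% of the replicate 2 peaks met a replicate 1 peak, against 64.1% of all. Unpaired sites were weak. Shared sites had a median signal of 1.05 in replicate 1 and 1.14 in replicate 2. The median was 0.461 for unpaired sites of replicate 1 and 0.468 for unpaired sites of replicate 2.

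Most accessible sites were not promoters. Introns held 42 of the 92 sites, 31 lay within 1 kb of an own TSS, 15 were in the flanks and 4 were at exons or beside a Nudt6 TSS. Of the receptor sites, 25 of 41 (61.0%) were shared, and of the ligand sites 25 of 51 (49.0%). The shared sites were uneven across genes. Of the shared ligand sites, Fgf1 held 14, Fgf2 9, Fgf10 2 and Fgf7 0. Of the shared receptor sites, Fgfr2 held 10, Fgfr1 9, Fgfr3 5 and Fgfr4 1. The median signal of shared sites was 1.30 for receptors and 1.16 for ligands. Of the 92 sites, 52 overlap no annotated repeat, and the median base composition was 53.0% G or C. Position, repeat overlap and base composition were not computed over all peaks, so these counts describe the 92 sites only.

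Footprints numbered 109 in replicate 1 and 156 in replicate 2. Per kb of peak the loci held 8.52 footprints in replicate 1 and 8.98 in replicate 2, against 9.80 and 9.66 over all peaks of replicates 1 and 2. Fgf10 was lowest of the genes with a promoter peak in both libraries, with 1.05 footprints per kb of peak in replicate 1 and 3.35 in replicate 2. Fgf1 held 28 footprints in replicate 1, of which 21 overlapped a replicate 2 footprint, while in Fgfr3 that was 2 of 10.

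Start regions differed in base composition in the RefSeq promoters of GRCm38.p6 around each annotated start. These were matched for 6 of the 8 genes. Fgfr3 had 26 and 30 CpG dinucleotides in its 2 windows, Fgf2 had 24 and Fgfr4 had 20, against a median of 7 over 32851 promoters. Fgf7 had 11, Fgf10 had 10 and Fgfr2 had 4, but the Fgfr2 window, chr7:130266759-130267058, lies upstream of both open promoter peaks. Of the 3 genes richest in CpG here, Fgfr3 and Fgf2 had a promoter peak in both libraries and Fgfr4 did not.

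Summed over the peaks listed in a locus, signal was compared between the libraries as the log2 ratio of replicate 2 over replicate 1, set relative to the median (0.28) over the 17377 protein-coding loci that had peaks in each library. Peaks were called separately per library, so this sum also moves with how much was listed: the 8 loci held 10920 bp of peak in replicate 1 and 16378 bp in replicate 2. Fgfr1 (-0.12), Fgfr2 (-0.01) and Fgfr3 (-0.15) were close to that median, and Fgf1 (0.22) and Fgf2 (0.34) were within the SD of 0.454 over all loci. Fgfr4 stood at 0.51 and Fgf10 at 0.58, which is 1.497-fold and just under the limit of 1.5-fold. Fgf7 was the only gene whose sum was past 1.5-fold, at 2.17. Its sums rest on different sites, 1 peak of 97 bp in replicate 1 and 5 other peaks of 667 bp in all in replicate 2, and the mean signal per peak was 0.657 in replicate 1 and 0.718 in replicate 2. The Fgf7 ratio is thus a difference in the peaks listed and is no change at a common site. So 1 of 8 genes had a sum past 1.5-fold higher in replicate 2, beside 11.0% of all loci, and 0 of 8 were past 1.5-fold lower, beside 3.40%. With paired peaks only, which leaves Fgf7 out, the median over the 7 remaining genes was -0.04, against 0.28 over all 8 genes with every peak.

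Each locus with more than 1 shared site had sites on both sides of the median of all paired peaks. Among the shared sites of Fgf1, 9 of 14 were above that median and 5 below. In Fgfr2 most lay on 1 side, with 2 of 10 above and 8 below. The pair of sites that stood highest, in Fgf2 and Fgfr1, both held a CTCF consensus. CTCF is a zinc finger protein that binds a long motif and anchors chromatin loops. The motif, searched on both strands with at most 1 mismatch in the central 200 bp of each site, was chosen after the data had been seen, and a difference between these libraries at CTCF motifs was already known, so it is not independent support.

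The consensus was found in 10 of the 92 sites (10.9%), against 11.9% of all peaks of replicate 1 and 12.9% of those of replicate 2. Of the 10, 7 were shared, and in 7 of these 7 a footprint of each library overlapped the match by at least 1 bp. All 7 were above the median of paired peaks, between 0.47 and 1.23 with a median of 0.63, whereas 18 of the 43 shared sites without it were above, with a median of -0.20. The same was seen over the genome, where 90.7% of 10020 paired peaks with the consensus were above, with a median of 0.65 (log2), against 43.2% of those without. The matches of the loci printed here are written in the direction of the consensus, and all their letters are capitals. They lie at chr8:25575291-25575304 (minus strand, Fgfr1), chr5:33738098-33738111 (minus, Fgfr3), chr13:55178769-55178782 (minus, Fgfr4), chr3:37414617-37414630 (minus, Fgf2) and chr2:126033589-126033602 (minus, Fgf7).
Fgfr1 match: CCAGCAGGTGGCAG
Fgfr3 match: GCACTAGAGGGCGC
Fgfr4 match: CCAGGAGGTGGCAC
Fgf2 match: CCAGCAGGGGTCGC
Fgf7 match: CCACCAGGTGGTGC

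The Fgf2 match belongs to the downstream site with the largest difference of the 50 (1.23), the Fgfr1 match to the next (1.18), and the Fgfr4 match, just beyond the edge of the locus, to a site at 0.82. The Fgfr3 match had 0.48. The Fgf7 match lies in a peak of replicate 2 only, chr2:126033529-126033660, just inside 1 kb from the TSS, with a signal of 0.698. The other promoter peak of Fgf7, next to the TSS, holds no match. In Fgf1 the match was found at the upstream site and the 2 intronic sites named above, which were at 0.53, 0.63 and 0.47.

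**Figure D3:**
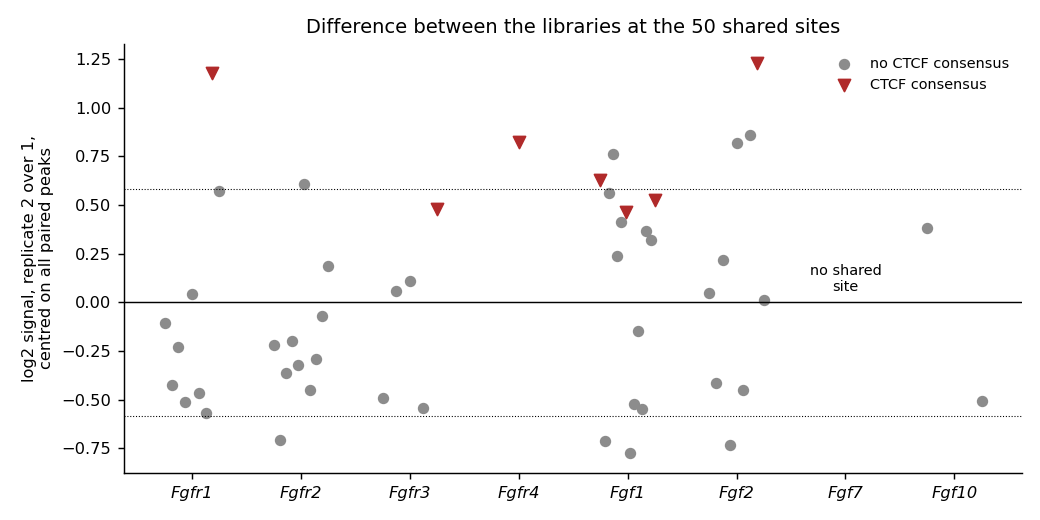
Log2 ratio of peak signal, replicate 2 over replicate 1, centred on all paired peaks, for the 50 shared sites by gene. Triangles are the 7 sites with a CTCF consensus, between 0.47 and 1.23, grey circles are the 43 others, between -0.78 and 0.86, and dotted lines mark 1.5-fold.

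Other consensus letters, searched on both strands without mismatch in the same 200 bp, were counted beside their share of all peaks. AP-1 (TGANTCA) was in 13 of 92 sites, 14.1% against 14.8% of all replicate 1 peaks and 13.9% of replicate 2 peaks, and 11 of the 13 were away from a TSS. TEAD (GGAATG) was in 12 of 92 sites, where 11.8% of replicate 1 peaks and 11.9% of replicate 2 peaks hold it. NF-Y (CCAAT) was in 16, 17.4% against 22.4% and 23.2%. KLF/SP (GGGCGGGG) was in 7, 7.61% against 8.83% and 7.07%, and 5 of the 7 were near a TSS. The NFI letters TTGGCA were the most frequent, in 19 of 92 sites, 20.7% against 14.6% of replicate 1 peaks and 16.3% of replicate 2 peaks. The AGATAA letters of GATA factors were in 3 sites, 3.26% against 7.80% and 8.34%. FOX (TGTTTAC) was in 5 sites, 5.43% against 3.73% and 3.63%, RUNX (TGTGGTT) in 4, 4.35% against 4.04% and 4.23%, and the E-box CACGTG in 3, 3.26% against 5.27% and 4.72%. The ETS letters CCGGAAG were in none of the 92 sites, where 4.28% of replicate 1 peaks and 3.53% of replicate 2 peaks hold them, and GRHL (AACCNGTT) was in none, where 2.48% and 2.42% do. Motifs were counted separately, so a site can hold several, and a match is letters in a window, not a bound factor.

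Inside the cell, the genes that carry the signal of the receptors had open promoters. All 13 listed adaptors and effectors had a promoter peak in both libraries, again beside 64.2% of all genes. For Frs3, an adaptor related to Frs2, that peak is shared with the start of another gene, and without such peaks it was 12 of 13. Map2k1, a MAP kinase kinase, was highest, with 11.8 in replicate 1 and 12.8 in replicate 2, followed by its paralogue Map2k2 (6.92 and 7.01 in replicates 1 and 2) and the adaptor Grb2 (7.15 and 6.65). Of the feedback and target genes, 10 of 10 annotated were open. The transcription factor gene Etv5 had 9.50 in replicate 1 and 7.46 in replicate 2, the ERK phosphatase gene Dusp6 had 7.14 and 5.77, and the receptor antagonist gene Il17rd had 6.03 and 5.41.

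At the cell surface, 11 of 14 co-receptors and modulators were open, beside 64.2% of all genes. The heparan sulphate sulphotransferase gene Hs6st1 had 4.34 in replicate 1 and 4.49 in replicate 2, and the syndecan gene Sdc4 had 3.65 in replicate 1 and 3.54 in replicate 2. Hs2st1 was higher, at 8.04 in replicate 1 and 6.93 in replicate 2, but that peak is shared with the start of another gene, and without it Hs2st1 had no promoter peak in replicate 1 and 0.407 in replicate 2. Closed in both libraries were Fgfbp1, which releases FGFs from the matrix, Flrt1 and Klb, the co-receptor for endocrine FGFs.

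Of the other ligands, 8 of 14 were open, beside 64.2% of all genes, with a median promoter signal of 1.10 in those open. Without peaks shared with the start of another gene it was 7 of 14. Fgf20 then had no promoter peak in replicate 1 and 0.274 in replicate 2. With shared peaks counted, Fgf20 (1.43 in replicate 1 and 1.71 in replicate 2, at such a peak), Fgf15 (0.844 and 2.08) and Fgf18 (0.912 and 1.66) had the highest promoter signal. Fgf3, Fgf6, Fgf8, Fgf17, Fgf21 and Fgf23 had no promoter peak in either library. Of the intracellular FGF homologous factors, which act on ion channels and not through receptors, 3 of 4 were open, again beside 64.2%. The highest of them was Fgf12 with 0.674 in replicate 1 and 0.733 in replicate 2. Fgf13 had 0.358 in replicate 1 and 0.398 in replicate 2, and Fgf11 had a promoter peak of 0.733 in replicate 2 only.

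**Figure D4:**
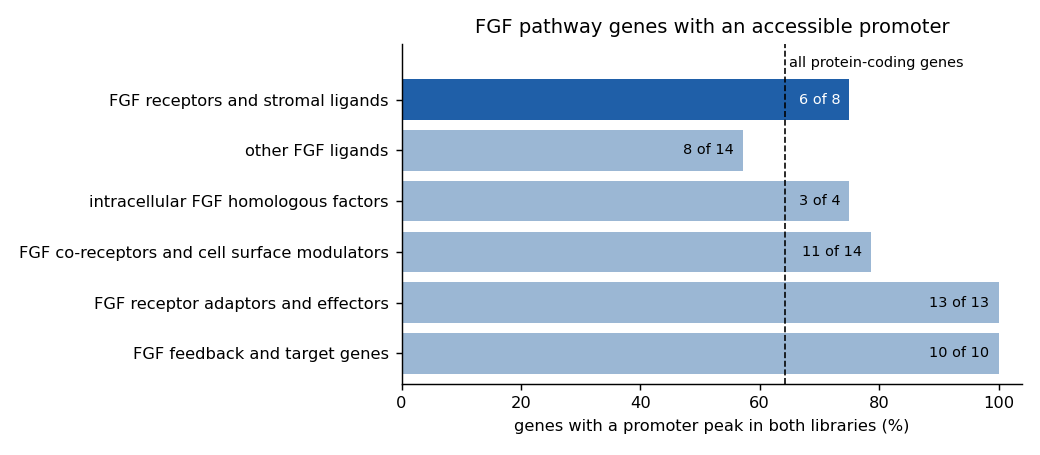
Share of annotated genes with a promoter peak in both libraries, in percent, for the 8 FGF receptors and stromal ligands and for the other lists of the pathway. The dashed line is the 64.2% of all protein-coding genes, which the other ligands (8 of 14) fall below and the adaptors (13 of 13) and feedback genes (10 of 10) exceed.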

How the data were processed

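DNase-seq peaks, footprints and stretches of significant cut rate were deposited per library on mm10, none pooled, per the deposited file listing. Neither aligner nor peak caller is named in the sources used here. Peak signal is the authors' deposited signal value, a whole multiple of 1 step per library (0.00853 in replicate 1 and 0.00884 in replicate 2) for 100% of peaks within a tolerance of 0.02 steps. The deposited cut-rate false discovery rate, on the p-value scale, is listed only under 0.05, and the deposited footprints carry the same value, 0.01, in every row, so they were not ranked. The longer peak list was the main list.

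Positions came from GENCODE M21, and sequence from the GRCm38.p6 reference, the same assembly as mm10, so alleles of CAST origin are not shown. An overlap of 1 bp made a peak count as found again in the other library. Shared sites and signal ratios used mutual best pairs. Tools were Python 3.11.15, numpy 2.4.6, pysam 0.24.0 and bedtools 2.31.1. The computation was tested on simulated peaks. Means carry the SD of n = 2 libraries, which limits their precision, and depth is unknown.

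The genes and lists were chosen with earlier results of these data known. Named were all 8 genes, in each locus the 3 shared peaks of highest mean signal and any peak over a TSS, and in each pathway list the 3 genes of highest mean promoter signal and up to 4 without a promoter peak. Among other ligands all 6 without one were named, 2 of them after their values were seen, as were Fgf7 and Fgfr4 sites of 1 library and CTCF sites. Spry3 was not analysed here, and 1 site that the rule names is not reported here. Alternatives covered the peak list, windows, neighbours, scaling, overlap and each library alone.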

Additional observations from a re-analysis of the deposited data

How the results depend on the processing

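No paired analysis was possible because the study has 1 group. The count of genes with a promoter peak in both libraries (6) was 5 with the shorter list or with equal numbers of strongest peaks, when Fgf10 dropped out, and 6 with a 500 bp window, with starts of protein-coding transcripts only or without peaks near starts of other genes. With each library alone it was between 6 and 8. The count of other pathway genes (45 of 55) was 38 with the shorter list, 40 with equal numbers of strongest peaks and 44 with a 500 bp window. With each library alone that count was between 45 and 46, and it was 42 without peaks near starts of other genes (added after seeing the data). Replicate 1 peaks that met a replicate 2 peak (51) numbered 29 in the shorter list. They numbered 91 with 50 kb flanks and 191 with the whole annotated Fgfr2 gene. These settings cover other regions or fewer peaks. Median density (1.16 per 10 kb) was 0.689 with the shorter list, and between 0.954 and 1.29 with each library alone. Mean footprints per library (132.5) were 252 with 50 kb flanks and 546.5 with the whole Fgfr2 gene, and between 109 and 156 with each library alone. With paired peaks only, the median centred log2 ratio (0.28) was -0.04. In the remaining centred settings it lay between 0.12 and 0.29, the setting without the CTCF sites included (0.20, added after seeing the data). Without centring the median was 0.57. Within 500 bp the Fgfr2 promoter signal was 2.65. With 2 libraries and unknown depth, a peak listed in 1 library only cannot be told apart from one missed in the other.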

Other observations

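Among the other FGF ligand genes, several loci had a higher summed signal of listed peaks in replicate 2. Of 13 such loci with a peak in both libraries, 6 had a sum past 1.5-fold higher in replicate 2 after centring, beside 11.0% of all loci, and none was past 1.5-fold lower, beside 3.40%. They were Fgf23 (1.60), Fgf15 (1.496), Fgf16 (0.92), Fgf3 and Fgf4 (both 0.84) and Fgf17 (0.69), on the log2 scale. Fgf3 and Fgf4 are neighbours on chromosome 7, and each locus held 1 peak in each library with the same ratio, so they count 1 site. Peaks were called separately per library, and at the other 4 the sums include more peaks in replicate 2. Fgf23, Fgf15 and Fgf16 had 1 peak each in replicate 1 and 2 each in replicate 2, and Fgf17 had 4 in replicate 1 and 7 in replicate 2. Covered length was 251 bp in replicate 1 and 420 bp in replicate 2 for Fgf23, 220 and 360 bp for Fgf15, 77 and 173 bp for Fgf16, and 575 and 1251 bp for Fgf17. The mean signal per peak was 0.495 in replicate 1 and 0.915 in replicate 2 for Fgf23, 0.844 and 1.45 for Fgf15, 0.392 and 0.451 for Fgf16, and 0.991 and 1.11 for Fgf17.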
